A study of Sus scrofa with 43 samples.

Results

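The genes described here carry iron into the cell, bind it in plasma, store it, or set how much of it the body lets in. They are TFRC, FTH1, FTL, SLC11A2, HAMP and TF, chosen by name and not by any measured value, though with earlier results of these data known. Array spots were taken as members where their transcript accession is a pig RefSeq transcript of one of these symbols. All 6 symbols had a spot, which gave 7 transcript accessions and 20 spots, out of 35884 accessions and 43803 gene spots on the array. Of the 7 accessions, 5 passed the filter on dim signals that 12771 accessions passed in all.

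Dietary iron is taken up in the upper small intestine. The iron is reduced at the surface of the enterocyte, carried in by SLC11A2 (the divalent metal transporter DMT1), kept in ferritin or passed to the blood by ferroportin, and bound there by transferrin. TFRC, the transferrin receptor, brings transferrin iron into cells, mostly dividing cells and red cell precursors. Hepcidin, the peptide product of HAMP, is made mainly by the liver and closes the exit by taking ferroportin from the cell surface, and macrophages are a further known source of it. Newborn pigs are known for small iron stores, for milk that is poor in iron and for rapid growth.

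Each of the 43 arrays held total RNA, labelled with cyanine 3, from scrapings of the jejunum of 1 male piglet of Hypor sows. In the amoxicillin group, 20 piglets came from sows that received 15 mg/kg body weight of amoxicillin, a beta-lactam antibiotic, each day from the week before farrowing until farrowing. The 23 piglets of the control group came from sows on standard feed, and the drug went to the sow in every case, not to the piglet. The control group held 6 arrays at day 1, 6 at day 7, 3 at weaning, 5 at 4 d postweaning and 3 at 4 wk postweaning, and the amoxicillin group held 4 arrays at each of these 5 ages. Every piglet was sampled once, so a course over the ages compares different animals.

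The arrays lay on 6 slides, of which 3 held control arrays only and 3 held amoxicillin arrays only, so the slide and the treatment cannot be told apart. Most slides held 2 or 3 ages, and the steps between ages could in part be read within a slide. Between 15937 and 29827 gene spots per control array (median 28182) and between 16150 and 26290 per amoxicillin array (median 21316.5) were well above background in the scanner's own call. The 4 amoxicillin arrays at 4 wk postweaning stood apart, with a median correlation with the other arrays of 0.84 to 0.86 against 0.88 to 0.95 for the remaining 39. One amoxicillin array at weaning, that of piglet 8, was low for the enterocyte markers FABP2 and APOA4 (12.07 and 12.10 in log2, against at least 14.41 and 15.47 on the other 42 arrays) but not for ANPEP (15.60, against at least 15.19). These were the 3 of 7 listed enterocyte markers with a spot, and their mean lay between 15.22 and 16.00 on the 42 other arrays. FABP2 was saturated on 22 arrays and APOA4 on 41. The array of piglet 8 also had the highest mean of the dividing crypt cell markers of all arrays (13.76). Tests over the ages of the amoxicillin group are also given without its 4 wk arrays, and results that rest on piglet 8 without that array. The step from 4 d to 4 wk postweaning in this group rests on the 4 arrays that stood apart and has no value without them. In bulk tissue, fewer cells of a type and less RNA per cell cannot be told apart. Values are normalized log2 intensities, with a mean ± SD over the arrays of a group, and they compare 1 gene between arrays but not 2 genes with each other. The filter line lay at 7.68 in log2, and a gene passed where every array of at least 1 group was above it.

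SLC11A2, which carries ferrous iron across the brush border, was highest in the first week of life and lower from weaning on. In the amoxicillin group it fell 2.62-fold between day 7 and weaning and 2.31-fold again between 4 d and 4 wk postweaning, and the control group had its lower values at weaning as well. The gene (NM_001128440) has 2 probes, whose values correlated at 0.93 over the 43 arrays, and at least 1 probe was well above background on 42 arrays. Both groups had passed the filter at day 1 and day 7, and the amoxicillin group at 4 d postweaning as well.

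In the control group SLC11A2 ranged from 8.43 to 9.41 at day 1 (median 8.70, n = 6) and from 7.92 to 9.40 at day 7 (median 8.98, n = 6). At weaning the 3 control arrays gave 6.95, 7.84 and 7.87. The later control arrays gave 7.89, 7.31, 7.82, 7.51 and 7.07 at 4 d and 7.45, 7.05 and 7.90 at 4 wk postweaning. All 3 arrays at weaning were thus below all 6 arrays at day 7, while the ranges at weaning and at both later ages overlapped. The means were 8.78 ± 0.36, 8.83 ± 0.58, 7.55 ± 0.52, 7.52 ± 0.34 and 7.47 ± 0.42 (SD) from the youngest age to the oldest. The order from high to low was day 7, day 1, weaning, 4 d and 4 wk postweaning, and only day 1 and weaning, among neighbours in that order, had ranges that did not overlap.

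In the amoxicillin group SLC11A2 was 9.62, 8.35, 8.92 and 8.62 at day 1 and 8.37, 9.21, 9.69 and 10.70 at day 7. At weaning the arrays gave 8.61, 6.91, 8.47 and 8.43, the value of 6.91 being that of piglet 8. After weaning they gave 8.37, 8.11, 7.81 and 7.89 at 4 d and 7.02, 6.54, 6.81 and 6.97 at 4 wk postweaning. The 4 oldest piglets were below every other amoxicillin array except that of piglet 8, and below each of the 4 arrays of 4 d postweaning. The means were 8.88 ± 0.55, 9.49 ± 0.97, 8.10 ± 0.80, 8.04 ± 0.25 and 6.84 ± 0.22 (SD, n = 4 each).

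**Figure D1:**
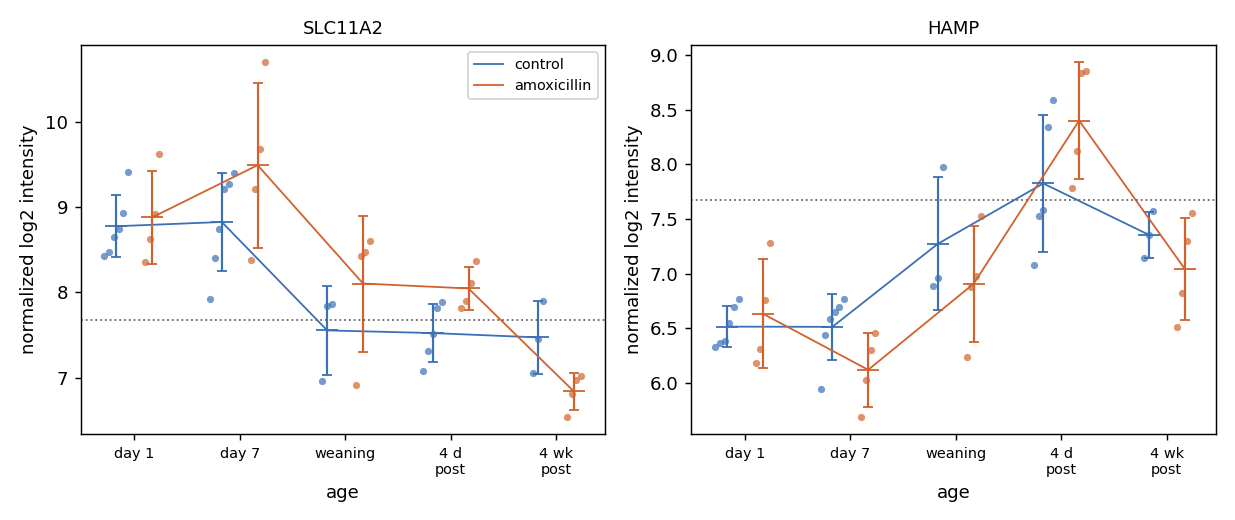
Normalized log2 intensity of SLC11A2 and HAMP in jejunal scrapings at the 5 ages, with the control and the amoxicillin group side by side. Dots are single arrays, bars give the mean ± SD, and the dotted line marks the filter at 7.68. SLC11A2 was highest at day 1 and day 7. HAMP, averaged over its 2 probes, reached no more than 7.28 in the first week and was highest at 4 d postweaning.

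Tested over all 5 ages at once with limma's moderated F-test, SLC11A2 changed in both groups (adjusted p = 6.41e-04 for the control and 1.17e-05 for the amoxicillin group). Of the 5 member accessions tested, 2 are the saturated ferritins, which leaves 3 that can be read. This test called 2 in the control group, SLC11A2 and HAMP, where it called 30.5% of all genes tested. For the amoxicillin group it called 3, with the inhibitor of carbonic anhydrase described later as the further one, where it called 47.0% of all genes. Without the 4 oldest amoxicillin arrays, which stood apart, the same 3 were called, SLC11A2 with an adjusted p of 0.0111. When the slide was a fixed block, so that ages were compared within slides, neither SLC11A2 nor HAMP passed over the ages of the control group (adjusted p = 0.160 and 0.603), and both passed over those of the amoxicillin group.

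Between day 7 and weaning the difference of SLC11A2 was -1.39 in log2 in the amoxicillin group (SE 0.38, 95% interval -2.15 to -0.63, adjusted p = 0.0142), and SLC11A2 was the only member called at this step, where 11.3% of all genes were called. The ranges of both ages overlapped, since the lowest array at day 7 (8.37) was below all arrays at weaning but that of piglet 8. The call was lost without piglet 24 of day 7 (-0.99, adjusted p = 0.0693) and without piglet 8 of weaning (-0.99, adjusted p = 0.0846). In the control group the difference was -1.27 (SE 0.38, fold 2.42, 95% interval -2.03 to -0.51), with an unadjusted p of 0.0017 and an adjusted p of 0.193 over all genes. No member was called at this step in the control group, where 0.125% of all genes were. On the 1 slide that held both ages of the control group the difference was -1.52, over 3 arrays at weaning and 4 at day 7 with no overlap.

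Between 4 d and 4 wk postweaning SLC11A2 fell by 1.21 in log2 in the amoxicillin group (95% interval -1.97 to -0.45, adjusted p = 0.0300), one of 2 members called at a step where 12.7% of all genes were called and the median of all genes was -0.17. The difference within the slide that held both ages was -1.06, over 4 arrays and 1. It did not pass with the slide as a random block (-1.09, adjusted p = 0.105), and it was lost when piglet 10 or 32 of 4 d or piglet 38 or 39 of 4 wk postweaning was left out (adjusted p between 0.0644 and 0.0831). In the control group this step was -0.05 (95% interval -0.84 to 0.74), and no member was called there, nor was any of all genes tested (0%; 789 genes had an unadjusted p under 0.05). The other steps of SLC11A2 were small or wide, at +0.05, -0.03 and -0.05 in the control group apart from weaning, and at +0.61 (adjusted p = 0.689) and -0.06 in the amoxicillin group for day 1 to day 7 and weaning to 4 d postweaning.

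HAMP, which codes for the hormone that limits iron release into the blood, followed another course. Averaged over its 2 probes, it was low in the first week and highest at 4 d postweaning. There the amoxicillin arrays were 2.82-fold above those of weaning and 2.56-fold above those of 4 wk postweaning. HAMP (NM_214117) has 2 probes that correlated at 0.69, and 1 or both were well above background on 38 arrays. By the probe well above background on more arrays (38 against 28), HAMP was not low at day 1 in the amoxicillin group. Its mean there was 7.63, against 7.33 at weaning and 7.55 at 4 wk postweaning. By the other probe these means were 5.64, 6.49 and 6.55. Both probes were highest at 4 d postweaning in this group (8.63 and 8.17). HAMP passed the filter through the amoxicillin group of 4 d postweaning alone, the group in which it was highest. Passing the filter and standing high there are thus not independent. For that reason the same values are also given from a fit of all 35884 genes with no filter.

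In the control group HAMP ranged from 6.33 to 6.77 at day 1 (median 6.46) and from 5.95 to 6.77 at day 7 (median 6.62). The control arrays gave 7.98, 6.88 and 6.96 at weaning, 7.08, 7.58, 7.53, 8.34 and 8.59 at 4 d, and 7.57, 7.15 and 7.35 at 4 wk postweaning. Every control array from weaning on was above all 12 control arrays of the first week. The means were 6.52 ± 0.19, 6.51 ± 0.30, 7.27 ± 0.61, 7.83 ± 0.62 and 7.36 ± 0.21 (SD), and the 3 later ages overlapped one another. The F-test over the ages gave an adjusted p of 5.02e-04, or 0.00146 with no filter. No single step of the control group passed. The adjusted p was 0.384 for the +0.76 from day 7 to weaning, 0.348 for the +0.55 to 4 d and 0.911 for the -0.47 to 4 wk postweaning. Within slides these steps were 0.67 (3 and 4 arrays, no overlap), -0.19 (1 and 3 arrays) and -0.66 (3 and 4 arrays), the last 2 with overlap. The step to 4 d postweaning thus had the opposite sign within the slide that held both ages.

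The HAMP values of the amoxicillin group were 6.18, 6.31, 6.76 and 7.28 at day 1 and 5.69, 6.30, 6.46 and 6.03 at day 7. They gave 6.88, 7.53, 6.24 and 6.98 at weaning, 7.79, 8.85, 8.13 and 8.84 at 4 d, and 6.82, 7.55, 7.30 and 6.51 at 4 wk postweaning. The 4 arrays of 4 d postweaning were above all 16 other arrays of the group. Means were 6.63 ± 0.50, 6.12 ± 0.34, 6.91 ± 0.53, 8.40 ± 0.53 and 7.05 ± 0.47 (SD, n = 4 each). The F-test over these ages gave an adjusted p of 8.71e-06, or 2.16e-05 with no filter.

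HAMP rose by 1.49 in log2 from weaning to 4 d postweaning in the amoxicillin group (SE 0.31, 95% interval 0.86 to 2.13, adjusted p = 0.00378, or 0.0109 with no filter). It was the only member called at this step, at which 6.37% of all genes were called. It then fell by 1.36 until 4 wk postweaning (95% interval -1.99 to -0.72, adjusted p = 0.00486, or 0.00569 with no filter). Both calls of HAMP held when any 1 of the 43 arrays was left out. Neither held in a fit of the amoxicillin arrays alone (adjusted p = 0.0551 and 0.0515). By 1 probe alone the later fall did not pass (-1.09, adjusted p = 0.0542). With no filter, the rise did not pass by that probe either (1.31, adjusted p = 0.0634). Within slides, the rise was 1.35 over 3 and 4 arrays and the later difference was -1.80 over 4 arrays and 1, both with no overlap. The preceding step, from day 7 to weaning, was +0.79 (adjusted p = 0.0962).

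Markers of macrophages moved over the same ages. Of 6 macrophage markers listed, CD163, CD14 and MRC1 had a spot, and their mean log2 level in the amoxicillin group was 7.55 at weaning (7.11 to 7.94), 9.01 at 4 d (7.81 to 9.78) and 7.88 at 4 wk postweaning (7.25 to 8.76). In the control group it was 7.42, 8.45 and 8.13 at these ages. Over the 43 arrays the mean of these markers correlated with HAMP at 0.49, and at 0.23 once the group means were removed. Of 6 liver markers, 4 had a spot. Their mean was highest in the first week, when HAMP averaged over its probes was lowest. Its correlation with HAMP was -0.55, or 0.04 with the group means removed. The course of this mean was mainly that of APOA2, while albumin was below the filter line on every array, as given with transferrin below. Markers of dividing crypt cells (4 of 8 with a spot) were at 10.95, 12.14 and 11.74 in the control group at weaning, 4 d and 4 wk postweaning. In the amoxicillin group they were at 11.26, 11.74 and 11.35. They correlated with HAMP at 0.41, or 0.37 with the group means removed. At weaning they ranged from 8.86 to 13.48 in the control group, highest for piglet 7, and from 10.11 to 13.76 in the amoxicillin group, highest for piglet 8. These piglets also had the highest HAMP of their groups (7.98 and 7.53). Smooth muscle markers (2 of 5) were at 10.33, 8.81 and 10.38 and at 9.75, 9.32 and 9.99, and correlated with HAMP at -0.48, or -0.34. The part of these cells in the level of HAMP was not tested.

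The plasma carrier transferrin needs care in naming, because 2 pig genes stand under the symbol TF. NM_001244653 is the transcript of transferrin itself and NM_213847 that of the inhibitor of carbonic anhydrase, a related protein of pig plasma whose synonym is PICA and which is called PICA here. Transferrin was dim and did not pass the filter, so its tests come from the fit of all 35884 genes, while PICA passed through both weaning groups.

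Averaged over its 3 probes, transferrin of the control group was highest at day 1 and fell 1.99-fold by day 7. The amoxicillin means were 6.57 at day 1 and 6.68 at 4 wk postweaning, with ranges that overlapped, and lower between. At day 1 the 6 control arrays ranged from 6.57 to 7.31 (median 6.96), and at day 7 from 5.48 to 6.18 (median 6.14), with no overlap. Its difference was -0.996 in log2 (SE 0.22, adjusted p = 0.0258), at a step where 0.293% of the 35884 genes were called. The amoxicillin arrays gave 6.90, 6.71, 6.32 and 6.36 at day 1 and 5.07, 5.79, 5.92 and 6.31 at day 7, which did not overlap either, and the difference of -0.80 did not pass (adjusted p = 0.142). None of the members that passed the filter was called from day 1 to day 7 in the control group (1.43% of all genes) or in the amoxicillin group (0.736%). Within a slide transferrin differed by -0.80 in the control group (2 and 6 arrays) and by -0.98 in the amoxicillin group (3 and 4 arrays), with no overlap in either. The call in the control group was lost without piglet 17, 19 or 20 of day 1 or piglet 20 or 22 of day 7 (adjusted p between 0.0685 and 0.114), and also with the slide as a random block (-0.94, adjusted p = 0.137), with flagged spots kept (0.0915) and by 2 of the 3 probes alone (-0.25 and -0.998, adjusted p at least 0.446).

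After day 7 the group means of transferrin lay between 5.69 and 6.11 in the control group. In the amoxicillin group they were 5.77 at day 7, 5.90 at weaning and 5.72 at 4 d, and 6.68 at 4 wk postweaning, where the arrays gave 6.20, 7.34, 6.35 and 6.82 against 5.54, 6.03, 5.99 and 5.30 at 4 d. All 4 were above the 4 arrays before them, and the rise of 0.96 passed (fold 1.95, adjusted p = 0.0162) at a step where 10.6% of the 35884 genes were called. Without piglet 38, whose value of 7.34 rested on 2 of the 3 probes because of an outlier flag, it was 0.74 and did not pass (adjusted p = 0.0793). The 3 probes did not move together, with correlations of -0.27, -0.11 and 0.59, and by 1 of them alone this step was -0.06. That probe was well above background on 29 arrays, against 20 and 9 for the others. By it the control mean was highest at 4 wk postweaning (7.47, against 6.84 at day 1). By the other probes the control mean was highest at day 1 (7.86 and 6.13). Over the 5 ages transferrin passed in both groups (adjusted p = 0.00106 and 0.00496, with 13.7% and 34.8% of the 35884 genes called). The control call was lost by 2 of the 3 probes alone (0.518 and 0.273) and when slides were a fixed block, and the amoxicillin call by 1 probe alone (0.279) and in a fit of that group's arrays alone (0.114).

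The first-week level of transferrin stood beside that of the liver markers, a list chosen because the liver makes most plasma transferrin. The mean of the 4 liver markers with a spot, ALB, APOA2, TTR and SERPINA1, was 9.18 at day 1, 8.73 at day 7 and 7.16 at weaning in the control group and 9.26, 8.62 and 7.10 in the amoxicillin group. This course was mainly that of APOA2, which went from 15.88 at day 1 to 9.56 at weaning in the control group and from 15.97 to 9.93 in the amoxicillin group. Albumin, the defining liver transcript, had group means between 5.22 and 6.03, below the filter line and highest at 4 wk postweaning in the amoxicillin group, and TTR was well above background on 12 arrays. The mean correlated with transferrin at 0.51 over the 43 arrays, or 0.44 with the group means removed, and with SLC11A2 at 0.68, or 0.32. Markers of pancreatic acinar cells (5 of 6 with a spot) correlated with transferrin nearly as much, at 0.45, or 0.39 with the group means removed. The 1 of 4 plasma cell markers with a spot, XBP1, correlated with SLC11A2 at 0.62, or 0.66 with the group means removed. A single gene cannot show that the relation is with plasma cells. The part of these cells in either level was not tested.

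PICA, which binds carbonic anhydrase in plasma, was highest at weaning and varied widely between piglets of the same age. The control arrays ranged from 6.28 to 8.05 at day 1 (median 6.91) and from 6.25 to 9.79 at day 7 (median 8.13). They gave 8.14, 10.96 and 7.92 at weaning, 7.15, 6.69, 8.65, 6.89 and 7.59 at 4 d, and 7.06, 8.70 and 8.83 at 4 wk postweaning. In the control group every pair of neighbours in the order of the levels overlapped, and the F-test over the ages did not pass (adjusted p = 0.138, or 0.216 with no filter).

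PICA values in the amoxicillin group were 7.36, 6.52, 6.38 and 6.51 at day 1 and 7.36, 6.68, 8.51 and 8.42 at day 7. They were 10.82, 8.84, 8.75 and 9.96 at weaning, 6.73, 8.32, 10.05 and 8.07 at 4 d, and 7.75, 10.81, 8.59 and 7.16 at 4 wk postweaning. The 4 arrays at weaning were above all 8 amoxicillin arrays of the first week. PICA passed the filter only through the weaning groups, where it was highest, so its test over the ages is given with no filter as well. It changed over the ages of this group (adjusted p = 0.0196, or 0.0250 with no filter), though not without piglet 7 of weaning (0.0616) or with a random block for the slide (0.137). No single step passed, the widest being +1.85 from day 7 to weaning (95% interval 0.34 to 3.36, adjusted p = 0.0991). From weaning to 4 d postweaning it differed by -1.61 in the control group (adjusted p = 0.230), at a step where no member and 2.53% of all genes were called.

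**Figure D2:**
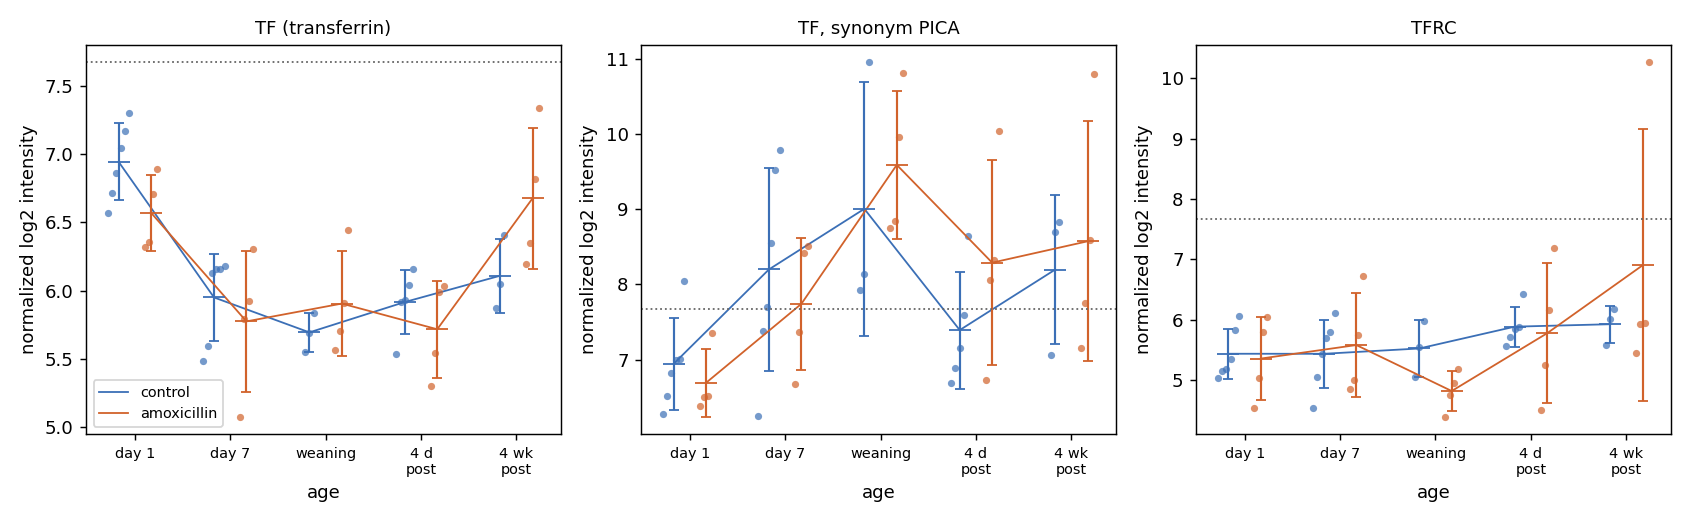
Normalized log2 intensity of transferrin (TF), of the inhibitor of carbonic anhydrase that shares its symbol (PICA) and of the transferrin receptor (TFRC) at the 5 ages in both groups. Dots are single arrays, bars give the mean ± SD, and the dotted line marks the filter at 7.68. Averaged over its 3 probes, transferrin was highest at day 1 in the control group. In the amoxicillin group it was about as high at 4 wk postweaning as at day 1. PICA was highest at weaning, and TFRC lay below the line on every array but one, at 10.26.

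TFRC, the receptor that takes up iron-loaded transferrin, was dim throughout. Its 1 probe (NM_214001) was well above background on 13 of 43 arrays, and it did not pass the filter. The control arrays ranged from 5.03 to 6.06 at day 1 (median 5.28), from 4.54 to 6.11 at day 7 (median 5.57), and were 5.98, 5.55 and 5.05 at weaning. They were 6.43, 5.85, 5.57, 5.88 and 5.72 at 4 d and 6.02, 5.59 and 6.18 at 4 wk postweaning. The control means thus lay between 5.44 and 5.93, and the ranges of neighbouring ages overlapped at every step.

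The amoxicillin arrays gave 6.06, 4.55, 5.80 and 5.04 at day 1, 5.01, 5.75, 6.73 and 4.86 at day 7, and 4.96, 5.18, 4.76 and 4.40 at weaning. They gave 7.19, 6.17, 5.25 and 4.51 at 4 d and 5.46, 10.26, 5.94 and 5.95 at 4 wk postweaning. One array, that of piglet 38, was far above the rest, and without it the 4 wk arrays lay within the range of the 4 d arrays. In the fit of all 35884 genes TFRC did not pass over the ages of either group (adjusted p = 0.980 and 0.0634). On the amoxicillin arrays of day 1 and of weaning no signal was well above background, so the lower means there (5.36 and 4.82) are not measured levels.

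The ferritin subunits FTH1 and FTL, the heavy and the light chain of the iron store, were too bright to be compared. FTH1 (NM_213975) has 10 probes and FTL (NM_001244131) has 1, and all were saturated on all 43 arrays, with the exception of 1 FTH1 probe on 1 array, which read 45658 where the scanner's top reading is 65535. Their normalized group means, 15.93 to 16.00 for FTH1 and 15.83 to 16.00 for FTL, therefore mark the ceiling of the scanner. No fold is given between ages or groups, and a difference in ferritin transcripts could not have been seen above that ceiling.

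The amoxicillin and control groups were then compared at each age, the comparison for which the study was designed. No iron gene differed past the thresholds of adjusted p under 0.05 and 1.5 in log2 at any age. FTH1 and FTL are among the 5 accessions tested but are saturated, so the counts rest on the other 3, SLC11A2, HAMP and PICA. The tests called 0 of these at day 1, where 0.211% of all genes were called, and 0 at day 7, where 0% were called and 887 genes had an unadjusted p under 0.05. They called 0 at weaning (3.41% of all genes), 0 at 4 d (1.54%) and 0 at 4 wk postweaning (2.13%). Without a fold threshold the count of members stayed at 0, and none of the 5 accessions that are not saturated had an unadjusted p under 0.05 at any age.

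SLC11A2 differed by 0.10, 0.67, 0.55, 0.52 and -0.63 in log2 (amoxicillin minus control) from day 1 to 4 wk postweaning, with the lowest p at day 7 (0.0597, adjusted 0.734). HAMP differed by 0.12, -0.39, -0.37, 0.58 and -0.31, with the lowest p at 4 d postweaning (0.0603, adjusted 0.398). At that age the amoxicillin arrays at 7.79 to 8.85 overlapped the control arrays at 7.08 to 8.59. At day 1 the 2 probes of HAMP differed in opposite directions. The amoxicillin and control means were 7.63 and 6.82 by 1 probe and 5.64 and 6.21 by the other. At 4 wk postweaning all 4 amoxicillin arrays of SLC11A2 (6.54 to 7.02) were below the 3 control arrays (7.05 to 7.90).

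The difference of PICA lay between -0.46 and 0.90 over the ages. That of transferrin lay between -0.37 and 0.57, with the lowest p at 4 wk postweaning (0.0534, adjusted 0.251). The 95% intervals over the 5 ages reached from -1.46 to 1.37 for SLC11A2, from -1.05 to 1.18 for HAMP, from -0.86 to 1.15 for transferrin, from -1.83 to 2.33 for PICA and from -2.03 to 2.30 for TFRC. For SLC11A2, HAMP and transferrin these intervals stayed within 1.5 in log2, the size the study asked for in its calls, and for PICA and TFRC they did not. The intervals hold no term for the slide, which cannot be told apart from the treatment. That of transferrin comes from dim signals below the filter line. That the difference between the groups itself varied with age was called for no member (adjusted p = 0.432 for SLC11A2, 0.422 for HAMP and 0.853 for PICA), where 6.18% of all genes were called.

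**Figure D3:**
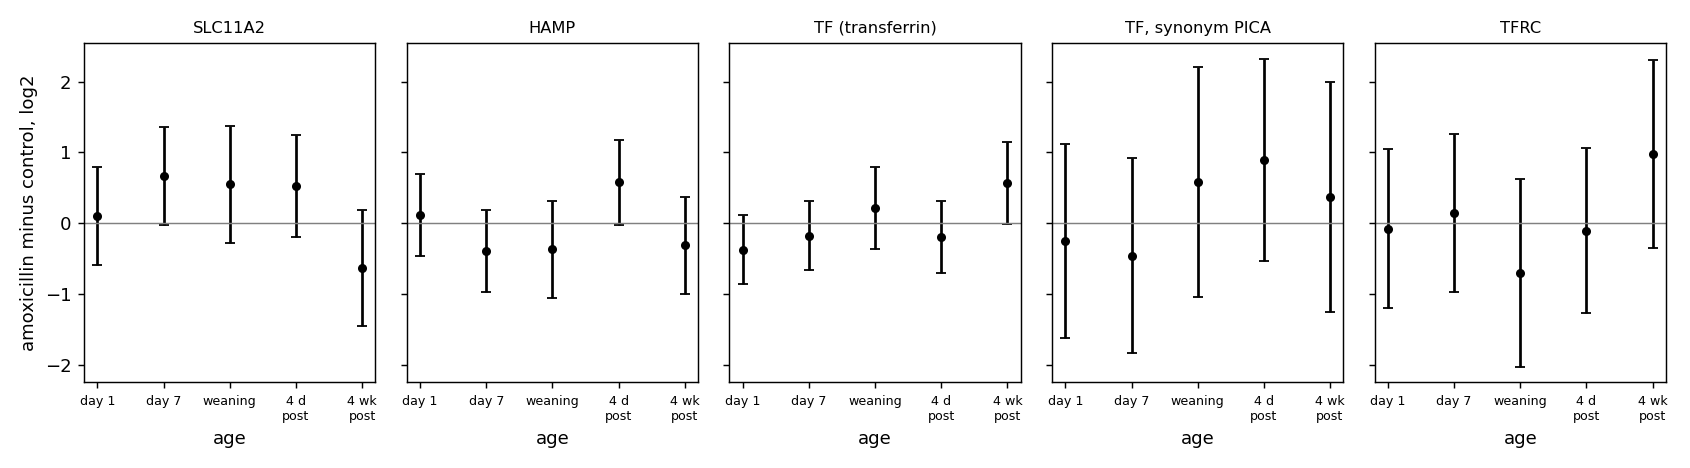
Difference between the amoxicillin and the control group in log2 at each age, with its 95% interval from limma, for SLC11A2, HAMP, PICA, transferrin and TFRC. All intervals reach across 0, and those of PICA and TFRC are the widest.

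Other genes of iron handling were looked up from a list of 53 symbols grouped by role. Of these, 22 had a spot under their symbol and 15 passed the filter. Ferroportin (SLC40A1), hephaestin (HEPH), HFE and the iron regulatory protein ACO1 had no spot under their symbol and were not analysed here. None of the 15 was called between the groups at any age. Over the ages, 6 of 15 were called in the control group and 10 of 15 in the amoxicillin group, beside the 30.5% and 47.0% of all genes given before. These counts became 3 and 9 with the slide as a random block, which ended the calls of IREB2 (0.107), SLC11A1 (0.0892) and HMOX2 (0.193) in the control group and of BMP2 (0.306) in the amoxicillin group, and 0 and 4 with the slide as a fixed block. The median step of the 15 genes was -0.15, -0.23, -0.16 and 0.05 in the control group and -0.10, -0.29, -0.12 and -0.55 in the amoxicillin group, against medians of all genes tested between -0.06 and 0.03 in the control group and of 0.05, 0.02, -0.01 and -0.17 in the amoxicillin group. The last of these rests on the 4 arrays that stood apart.

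Among the heme genes, HMOX1 and SLC46A1 were high in the first week and lower after weaning. HMOX1, the inducible heme oxygenase that frees iron from heme, changed over the ages of both groups (adjusted p = 9.54e-10 and 3.16e-06). It fell 5.15-fold from weaning to 4 d postweaning in the control group (-2.36 in log2, adjusted p = 0.00337). The arrays went from 11.45 to 12.91 at weaning down to 9.35 to 10.79 with no overlap. This call was lost when ages were compared within slides, and when the piglet number was the block (adjusted p = 0.299). Within the slide that held both ages HMOX1 differed by -1.60, over 1 array at 4 d postweaning and 3 at weaning, also with no overlap. In the amoxicillin group it fell 2.53-fold at the same step (-1.34, adjusted p = 0.0333), with ranges of 11.91 to 13.30 and 10.88 to 12.35 that overlapped, and this call was lost with no filter (0.0676) or without piglet 25 or 29 of weaning or piglet 10, 32 or 33 of 4 d postweaning (adjusted p up to 0.106). At 4 d postweaning HMOX1 was 1.41 higher in log2 in the amoxicillin group (fold 2.65, adjusted p = 0.0270), under the fold threshold, although all 4 amoxicillin arrays were above the 5 control arrays.

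SLC46A1, a transporter of folate that also carries heme, had group means of 15.18, 15.03, 13.32, 12.57 and 10.75 in the control group and 15.25, 15.12, 12.58, 12.45 and 11.52 in the amoxicillin group (adjusted p over the ages 7.95e-05 and 3.13e-04). It fell 5.79-fold from day 7 to weaning in the amoxicillin group (-2.53, adjusted p = 0.0334), where the arrays at weaning were widely spread, between 9.71 and 14.02. Without piglet 8 of weaning the difference was -1.58 and did not pass (adjusted p = 0.189), and the call was also lost without any 1 of the 4 arrays of day 7 (up to 0.0686) and with the slide as a random block (0.0925). HMOX2, the constitutive heme oxygenase, was called over the ages of the control group (adjusted p = 0.0267), though not without piglet 31 or 32 of 4 d or piglet 13 of 4 wk postweaning (up to 0.0629).

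**Figure D4:**
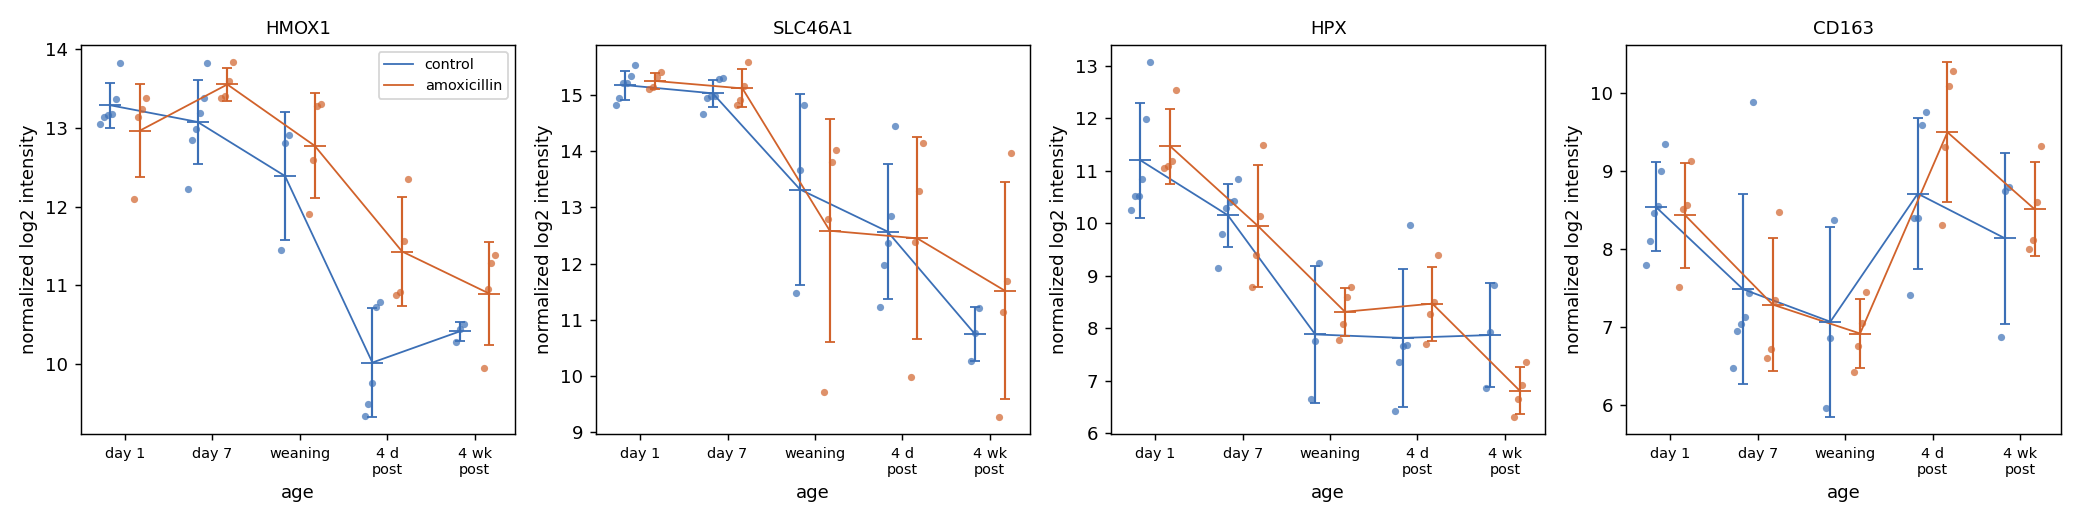
Normalized log2 intensity of HMOX1, SLC46A1, HPX and CD163 at the 5 ages in both groups. Dots are single arrays, and bars give the mean ± SD. HMOX1 and SLC46A1 were high in the first week and lower after weaning, HPX was highest at day 1, and CD163 was highest at 4 d postweaning.

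Genes that bind heme or hemoglobin moved in differing ways. HPX, the plasma heme carrier hemopexin, had means of 11.20, 10.15, 7.88, 7.81 and 7.87 in the control group and 11.47, 9.96, 8.31, 8.47 and 6.81 in the amoxicillin group, and it changed over the ages of both (adjusted p = 5.41e-06 and 4.30e-06) with no single step called. CD163, the macrophage receptor for hemoglobin bound to haptoglobin, rose 5.98-fold from weaning to 4 d postweaning in the amoxicillin group (2.58 in log2, adjusted p = 0.00847), the step at which HAMP rose. Its arrays went from 6.41 to 7.44 at weaning to 8.30 to 10.28 at 4 d postweaning, and the difference within the slide was 2.98. SLC11A1, the phagosomal relative of SLC11A2, rose by 1.01 at that step (adjusted p = 0.0364), but by 1 of its 2 probes the difference was -0.03, and the call was lost without piglet 7 or 8 of weaning or piglet 32 or 33 of 4 d postweaning (up to 0.122).

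Among genes that sense iron or act on HAMP, IREB2, an iron regulatory protein, had means that went from 11.02 at day 1 to 9.81 at 4 wk postweaning in the control group and from 10.86 to 9.32 in the amoxicillin group (adjusted p = 0.00229 and 1.80e-04), and by 1 of its 2 probes alone the control call was lost (0.231). BMP2, a ligand that induces hepcidin in the liver, was called over the ages of the amoxicillin group (adjusted p = 0.0338, means 10.48, 10.54, 11.62, 11.50 and 10.89), and so was SMAD4 of the same pathway (0.00559). The call of BMP2 was lost without any 1 of 8 arrays, those of piglets 2 and 17 of day 1, 4 and 21 of day 7, 7, 25 and 29 of weaning and 32 of 4 d postweaning (up to 0.0822). HIF1A fell by 1.18 from 4 d to 4 wk postweaning in the amoxicillin group (adjusted p = 0.0314), a call that was lost without the same 4 piglets as that of SLC11A2 (up to 0.124). Without the 4 oldest amoxicillin arrays, 8 of the 10 genes were still called over the ages, and SMAD4 (0.125) and HIF1A (0.451) were not. NCOA4, which hands ferritin over to the lysosome, fell by 1.18 from day 7 to weaning in that group (adjusted p = 0.00929), and did not pass without piglet 8 (0.0547).

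CYBRD1, the brush border ferric reductase that supplies SLC11A2, was called in no comparison. Its means were 9.99, 10.99, 9.65, 9.96 and 11.10 in the control group and 10.41, 11.48, 9.37, 9.75 and 8.88 in the amoxicillin group, and single arrays of the amoxicillin group at weaning ranged from 6.63 to 11.95.

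**Figure D5:**
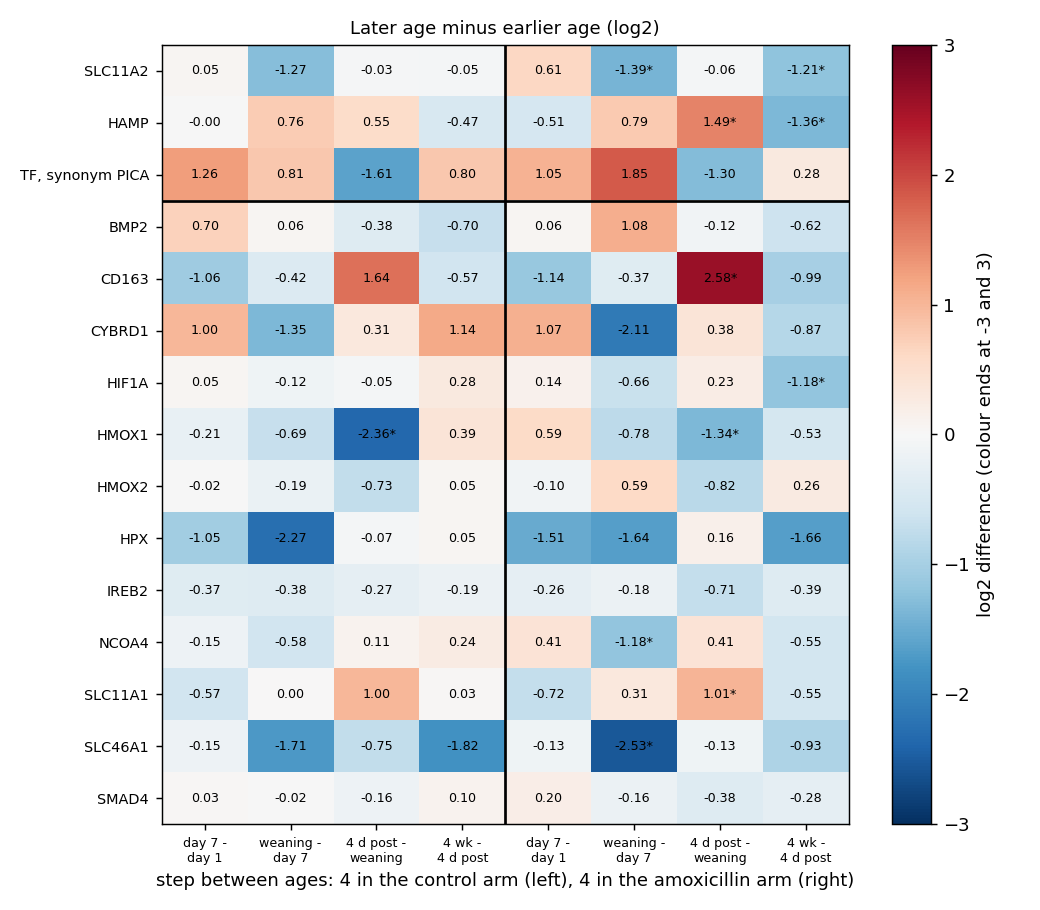
Differences between neighbouring ages in log2 for SLC11A2, HAMP, PICA, CYBRD1 and the other iron handling genes called in any comparison, with the 4 steps of the control group on the left and the 4 of the amoxicillin group on the right. A star marks an adjusted p under 0.05. Most stars lie in the amoxicillin columns, and in the control columns the only star is the decrease of HMOX1 from weaning to 4 d postweaning.

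The genes most like each member over the 43 arrays were found by Pearson's r among 1853 genes with a symbol. For SLC11A2 they were ITGAV (0.85), VCL (0.84) and TGFA (0.83), an integrin subunit, an adhesion protein and a growth factor. For HAMP they were TNFSF13B (0.76), CXCL11 (0.73) and CD86 (0.72), a B cell survival factor, a chemokine and a costimulatory receptor. For transferrin they were IGF2 (0.65), FTCD (0.64) and INS (0.55), of which IGF2 and FTCD are genes of fetal growth and of the liver. PICA was most like EPHX1 (0.72), LIPE (0.68) and CLDN3 (0.63), and TFRC was most like VARS, PPP2R2A and CCL3L1 (0.64 to 0.65). With the group means removed the values were 0.65, 0.70 and 0.57 for SLC11A2 and 0.41, 0.24 and 0.31 for HAMP. They were 0.27, 0.37 and -0.04 for transferrin, 0.64, 0.50 and 0.46 for PICA and 0.60 to 0.64 for TFRC. The TFRC probe was well above background on 13 of the 43 arrays. HAMP and SLC11A2 ran opposite to each other at -0.55, and at -0.24 with the group means removed. These correlations share arrays, slides and ages and are given as a description.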

How the data were processed

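Total RNA from scrapings of the jejunum was labelled by the authors with cyanine 3, hybridized to one-color Agilent porcine arrays and read with Feature Extraction 10.7.3.1. The deposited scanner output holds the linear intensity and local background of each spot, with flags and a well-above-background call, which are other measures used here as filters. A table of normalized log2 values was deposited too, made per the labels with R 3.0.2 and limma.

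Median intensities were background corrected here (normexp, offset 1) and then quantile normalized over all 43 arrays, which gave the authors' log2 values within 5e-09. Spots with an outlier flag (45 to 375 per array) were set aside, and the other probes of each accession were averaged. The authors' methods describe a filter at 1.1 times the highest dark spot. It was read here as 1.1 times the highest unflagged dark spot over all arrays in log2, 6.98, which gives 7.68, to be passed on every array of at least 1 group. Accessions were matched to symbols through RefSeq's list of pig genes, and 2978 accessions had one.

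All arrays were fitted as 10 groups of treatment and age with limma 3.58.1 in R 4.3.3, and p-values were adjusted by Benjamini-Hochberg over the 12771 genes tested. Treatment calls required an adjusted p under 0.05 and more than 1.5 in log2, and calls over the ages, between neighbouring ages and for the dependence of the treatment difference on age required the adjusted p only. TFRC and transferrin, which did not pass the filter, were tested over all 35884 genes. Neighbouring steps share the arrays of the age between them. The labels give 1 piglet per array, and the number of arrays per group limits the precision. The fit was tested on simulated data with known changes.

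The members, the lists of other iron genes and of cell markers and the tests were chosen with earlier results of these data known. Named genes are all members, the genes of the iron list called in any comparison, and CYBRD1, SLC40A1, HEPH, HFE and ACO1. The 3 most alike genes per member were taken from genes with a symbol, with FTH1 and FTL left out because of saturation. Alternatives changed the offset to 50, the scaling to a common 75th percentile (of the processed signal or after normexp), the filter to none or to the scanner's well-above-background call, and the unit to single probes. Others kept flagged spots, took the authors' table, put the slide (random, fixed) or the number of the piglet into the fit as a block, fitted 1 age or 1 arm only, dropped the fold threshold, or left out each array.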

Additional observations from a re-analysis of the deposited data

Results flagged for a closer look

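Of 40 groups of 4 to 6 arrays in which a member could be looked at, 3 held an array far from the others by Dixon's test, and chance alone gives about 1 in 20. TFRC was 10.26 on the amoxicillin array of piglet 38 at 4 wk postweaning, where the other 3 arrays gave 5.46, 5.94 and 5.95, and the gap made up 0.898 of the group's range against a critical value of 0.829. That array also had the lowest median correlation with the other arrays (0.841) and carried the outlier flag on a transferrin probe, and their part in the value was not tested. SLC11A2 was 6.91 on the amoxicillin array of piglet 8 at weaning, where the others gave 8.43 to 8.61 (0.893 of the range). The mean of the enterocyte markers was 13.26 on this array against at least 15.22 on the other 42. That of the dividing crypt cell markers was 13.76, the highest of all arrays. The part of either in the value was not tested. PICA was 7.36 on the amoxicillin array of piglet 2 at day 1, where the others gave 6.38 to 6.52 (0.859 of the range).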

How the results depend on the processing

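No member was called between the amoxicillin and the control group under any alternative that was run for this comparison. Where a member was not tested, as given below, it could not have been called. The slide as a fixed block was not run here, since each slide held arrays of 1 group only. With the main settings 2 members were called over the ages of the control group and 3 over those of the amoxicillin group, and in the amoxicillin group 1 from day 7 to weaning, 1 from weaning to 4 d and 2 from 4 d to 4 wk postweaning. With the processed signal or with flagged spots kept, the filter line rises, SLC11A2, HAMP and PICA are no longer tested, and all of these counts become 0. With an offset of 50, or with normexp at a common percentile, HAMP is not tested, and they become 1, 2, 1, 0 and 0. In fits with no filter, HAMP from weaning to 4 d postweaning did not pass with the processed signal (adjusted p = 0.0831). Nor did it pass with normexp at a common percentile (0.0637), where its step to 4 wk postweaning did not pass either (0.0693). The piglet number as a replicate block gives 0 in every comparison, with SLC11A2 at adjusted p = 0.290 over the ages of the control group and 0.389 over those of the amoxicillin group. The numbers belong to different piglets. At the same age, 10 same-numbered pairs of a control and an amoxicillin array correlated between -0.27 and 0.44. Numbers that recur between ages within a group were not examined, so a link of the ages through litters was not tested. With the slide as a fixed block the control group has 0 over the ages (SLC11A2 0.160, HAMP 0.603). From 4 d to 4 wk postweaning the slide as a fixed or a random block, 1 value per probe and the authors' table each leave 1 of 2. In fits of 1 arm alone, 1 member is called from day 7 to weaning in the control group (SLC11A2, adjusted p = 0.0330) and 0 at each step of the amoxicillin group. With no filter, or with the filter on spots well above background, 1 member (transferrin) is called from day 1 to day 7 in the control group.

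Leaving out 1 array at a time gave 2 to 2 and 2 to 3 calls over the ages of the control and the amoxicillin group, and 0 to 2, 1 to 1 and 1 to 2 at the later steps of the amoxicillin group. The further call there was HAMP from day 7 to weaning without piglet 25 (1.01, adjusted p = 0.0395). All other counts of members were 0 to 0. Direction was reversed by single probes, for SLC11A1 from weaning to 4 d postweaning (-0.033) and for transferrin from 4 d to 4 wk postweaning (-0.057). Without the 4 oldest amoxicillin arrays, an alternative chosen after seeing the data, 3 members were called over the ages. Saturation hides any difference in FTH1 and FTL, and signals near background limit TFRC and transferrin. The cause of these changes was otherwise not tested.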
